A study of Mus musculus with 19 samples.

Results

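The Cyp2c genes are a cytochrome P450 family of mouse chromosome 19, and 10 of them were described here across all 19 liver libraries of the series. The 10 genes (Cyp2c29, Cyp2c37, Cyp2c38, Cyp2c39, Cyp2c44, Cyp2c50, Cyp2c54, Cyp2c55, Cyp2c68 and Cyp2c70) were taken by gene name from the 4 deposited tables, which together list 24192 genes. All 10 were listed in the tables and passed the filter on low counts in every comparison. RNA was sequenced from whole livers of adult mice, 1 library per mouse. A low fat diet was fed to control mice, the group LF-C (n = 4), and to mice labelled as carrying a hepatocyte-specific PPARγ knockout, the group LF-KO (n = 4). The HF diet, rich in fat and with cholesterol and fructose added, was fed to 5 control mice (HF-C) and to 6 KO-labelled mice (HF-KO). HF mice ate that diet for 24 weeks and carry the label non-alcoholic steatohepatitis, a fatty liver with inflammation, while LF mice are labelled healthy. The knockout was induced before the HF diet began, and other liver cell types were not its target. The sources used here do not give how it was induced, nor the sex and strain of the mice.

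Cytochromes P450 of the Cyp2c family sit in the membrane of the endoplasmic reticulum, mainly in hepatocytes, and insert an oxygen atom into fatty acids, steroids, bile acids and drugs with electrons passed on by the reductase Por. Several mouse members convert arachidonic acid to epoxyeicosatrienoic acids, lipid signals that act on vessel tone and inflammation and that the epoxide hydrolase Ephx2 breaks down. The receptors CAR (Nr1i3) and PXR (Nr1i2) raise some members when drugs arrive, and HNF4α, a factor of the hepatocyte lineage, keeps several of them on. PPARγ, a nuclear receptor best known from fat cells, drives genes that store lipid.

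Along chromosome 19 the deposited tables place 9 of the 10 genes within 1.18 Mb (positions 39007019 to 40187333), in the order Cyp2c55, Cyp2c29, Cyp2c38, Cyp2c39, Cyp2c68, Cyp2c37, Cyp2c54, Cyp2c50 and Cyp2c70. Cyp2c44 lies apart, 3.82 Mb further on, at positions 44005022 to 44029247. Cyp2c55, Cyp2c29, Cyp2c39, Cyp2c37 and Cyp2c50 are on the forward strand and the other 5 genes on the reverse strand. The tables do not name their genome build. Their starts of Cyp2c55, Cyp2c38 and Cyp2c37 coincide with those of the RefSeq annotation of GRCm38.p6. Cyp2c29 overlaps the pseudogene Cyp2c53-ps, which had at most 9 reads in any library.

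The genes are close copies of each other, which bears on how reads were assigned. Over the longest protein-coding transcripts of GENCODE release M21, identity between the 45 pairs ranged from 59.0% to 95.8%. Cyp2c37 and Cyp2c50 were the closest pair at 95.8%, followed by Cyp2c38 and Cyp2c39 at 93.6% and by Cyp2c54 and Cyp2c50 at 92.8%. A stretch of 150 bases, the length of a read, was shared exactly with another Cyp2c transcript at 8.83% of positions in Cyp2c68 (with Cyp2c40), 3.25% in Cyp2c50 (with Cyp2c37 and Cyp2c54), 2.99% in Cyp2c54 and 0.299% in Cyp2c37. No position of the other 6 members was shared in this way. The sources used here do not give how reads that fit more than 1 gene were counted, so the levels of Cyp2c68, Cyp2c50, Cyp2c54 and Cyp2c37 carry that uncertainty.

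Upstream sequence from RefSeq (GRCm38.p6), the 250 bases before each annotated start, was found for 8 of the 10 members, without Cyp2c54 and Cyp2c44. Windows are shown for 6 genes on which the results below turn. Cyp2c37 and Cyp2c50 moved together, Cyp2c29 moved while its close relative Cyp2c38 did not, Cyp2c55 moved the other way, and Cyp2c70 is the bile acid enzyme. Capitals mark CAAAGTC, the first part of a motif bound by HNF4 factors (CAAAGTCCA), wherever a search of both strands found it.
Cyp2c29: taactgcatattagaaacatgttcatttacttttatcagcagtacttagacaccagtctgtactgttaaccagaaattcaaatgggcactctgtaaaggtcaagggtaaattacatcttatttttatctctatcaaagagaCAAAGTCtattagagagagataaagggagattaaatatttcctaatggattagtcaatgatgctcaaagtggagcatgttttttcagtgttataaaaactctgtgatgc
Cyp2c38: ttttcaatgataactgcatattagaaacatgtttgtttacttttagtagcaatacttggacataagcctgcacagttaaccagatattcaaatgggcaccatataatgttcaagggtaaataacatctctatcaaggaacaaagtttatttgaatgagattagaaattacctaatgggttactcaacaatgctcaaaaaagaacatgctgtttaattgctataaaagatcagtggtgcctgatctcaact
Cyp2c37: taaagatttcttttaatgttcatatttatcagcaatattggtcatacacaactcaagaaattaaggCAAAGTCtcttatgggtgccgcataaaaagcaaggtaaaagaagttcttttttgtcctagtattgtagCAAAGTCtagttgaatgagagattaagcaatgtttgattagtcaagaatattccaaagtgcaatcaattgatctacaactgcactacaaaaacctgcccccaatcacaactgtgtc
Cyp2c50: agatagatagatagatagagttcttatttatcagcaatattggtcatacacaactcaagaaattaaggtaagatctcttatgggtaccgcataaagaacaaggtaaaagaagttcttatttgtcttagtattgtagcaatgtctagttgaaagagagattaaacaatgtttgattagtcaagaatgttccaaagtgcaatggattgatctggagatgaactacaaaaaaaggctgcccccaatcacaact
Cyp2c55: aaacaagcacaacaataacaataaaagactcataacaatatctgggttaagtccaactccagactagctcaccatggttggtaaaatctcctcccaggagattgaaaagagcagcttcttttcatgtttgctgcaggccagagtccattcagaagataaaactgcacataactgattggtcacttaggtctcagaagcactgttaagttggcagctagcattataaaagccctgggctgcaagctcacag
Cyp2c70: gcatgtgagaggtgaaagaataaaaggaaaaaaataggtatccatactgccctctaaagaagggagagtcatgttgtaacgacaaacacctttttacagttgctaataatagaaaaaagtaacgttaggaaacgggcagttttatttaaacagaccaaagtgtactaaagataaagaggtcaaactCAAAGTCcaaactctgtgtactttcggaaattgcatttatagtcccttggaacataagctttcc

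The windows lie at chr19:39286835-39287084 for Cyp2c29 (forward strand), chr19:39463076-39463325 for Cyp2c38 (reverse), chr19:39992174-39992423 for Cyp2c37 (forward), chr19:40089429-40089678 for Cyp2c50 (forward), chr19:39006769-39007018 for Cyp2c55 (forward) and chr19:40187287-40187536 for Cyp2c70 (reverse). The RefSeq start of Cyp2c29 is 17680 bases from the gene start in the deposited tables. CAAAGTC stood in 5 of the 8 windows (Cyp2c29, Cyp2c39, Cyp2c68, Cyp2c37 and Cyp2c70), against 3.84% of 32851 windows of this length over all genes. In Cyp2c37 it stood at 184 and 116 bases before the start, in Cyp2c29 at 109 and in Cyp2c70 at 64. The whole CAAAGTCCA was found for Cyp2c68 and Cyp2c70 and in 0.384% of all windows. AGGTCA, the core element that nuclear receptors bind, was found for Cyp2c29 and Cyp2c70 and in 14.0% of all windows. Its repeats AGGTCANAGGTCA, a spacing bound by PPARs, and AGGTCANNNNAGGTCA, a spacing bound by CAR, were found in 0 of the 8. Over all windows they were found in 0.0335% and 0.0152%, so 0 of 8 does not set these genes apart. Looser forms of the repeats and sites outside the windows were not searched. TATAAA stood in the windows of Cyp2c55, Cyp2c29, Cyp2c38 and Cyp2c70, and in 12.4% of all windows. The windows of Cyp2c37 and Cyp2c50 were 86.3% identical, those of Cyp2c29 and Cyp2c38 74.8%, and the lowest of the 28 pairs was at 48.3%. These matches describe the letters of the windows only, and related windows share letters through common descent.

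Counted fragments per library ranged from 11437875 to 20711869. LF-C-2 stood apart, with a TMM scaling factor of 0.611 against 0.858 to 1.22 in the other 18 libraries, 1.64% of counts from mitochondrial genes against 4.02% to 5.92%, and 25.5% of counts in 10 genes against 14.6% to 20.2%. Every call of a family member given below for a comparison with LF-C held without that library, and other genes were not checked this way. Libraries within each group also differed by gene length. The rank correlation of gene length with a library's deviations from its group mean was -0.585 in LF-C-2. It ranged from -0.498 to 0.599 in the other 18 libraries, and each group held values of both signs. Its part in the member levels was not tested. Pparg, the targeted gene, had more counts in the KO-labelled livers, at 11.4 ± 5.77 CPM in LF-C, 25.3 ± 4.42 in HF-C, 25.1 ± 15.3 in LF-KO and 68.5 ± 25.3 in HF-KO (mean ± SD). Which part of the gene was deleted is not in the labels, and counts summed over a gene cannot show it, so each direction between genotypes below rests on the labels. CPM values are read counts relative to library size, scaled by TMM factors over all libraries. Log2 fold changes are given ± SE, and adjusted p-values are those of edgeR's quasi-likelihood test over all genes tested, with calls at an adjusted p under 0.05.

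Compared per unit of transcript length (the deposited FPKM, counted fragments relative to gene length and library size), the members differed widely in level in control livers on the LF diet. Cyp2c50 (221 ± 83.2 FPKM), Cyp2c29 (217 ± 59.2), Cyp2c70 (183 ± 43.6) and Cyp2c37 (145 ± 55.6) stood highest, and their ranges over the 4 LF-C libraries overlapped. Cyp2c44 (117 ± 16.1), Cyp2c68 (109 ± 15.0) and Cyp2c54 (69.4 ± 41.9) followed, and then Cyp2c38 (18.6 ± 8.94). Cyp2c39 (0.903 ± 0.597) and Cyp2c55 (0.459 ± 0.232) were lowest, with 11 to 49 and 9 to 24 reads per library. The FPKM of Cyp2c29 rests on a listed length of 2822 bases, while its longest protein-coding transcript has 1783. With that length, a choice made after seeing the data, its LF-C level was 343 ± 93.7 FPKM, 1.58 times as high and above the mean of every other member.

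Summed over the 10 genes, the level was 1081 ± 243 FPKM in LF-C and 528 ± 87.8 in HF-C, and 1198 ± 163 in LF-KO and 1280 ± 155 in HF-KO. All 5 HF-C livers, at 432 to 670 FPKM, lay below all the others, of which the lowest was LF-C-2 at 764. The members held 0.107% ± 0.0176 of all counted fragments in HF-C against 0.219% ± 0.0478 in LF-C, 0.239% ± 0.0312 in LF-KO and 0.260% ± 0.0323 in HF-KO.

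**Figure D1:**
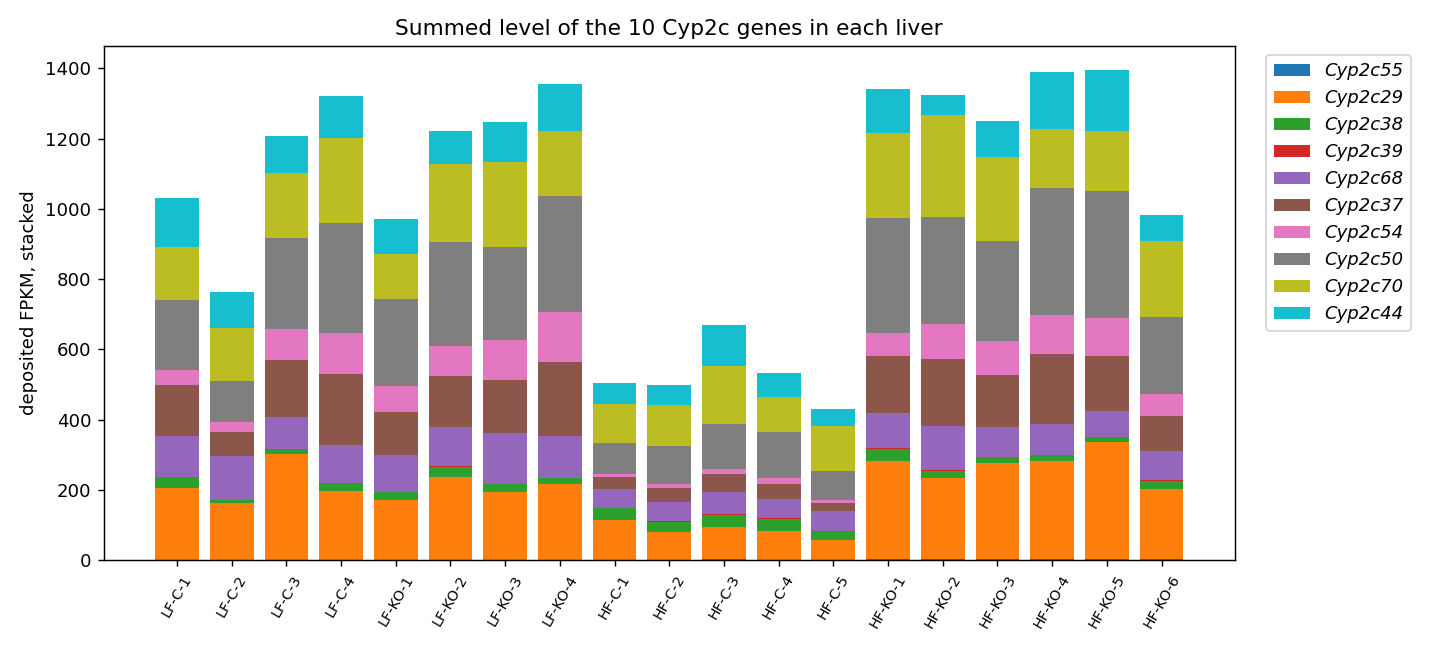
Deposited FPKM of the 10 Cyp2c genes stacked for each of the 19 livers (vertical axis in FPKM, 1 bar per library, colours for genes). The 5 HF-C bars reach 432 to 670 FPKM and the other 14 reach 764 or more, with Cyp2c50, Cyp2c29 and Cyp2c70 making up most of each bar.

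The diet effect in control livers, HF-C against LF-C, was a fall of most of the family. Of the 10 members 7 were called lower (Cyp2c29, Cyp2c37, Cyp2c44, Cyp2c50, Cyp2c54, Cyp2c68 and Cyp2c70) and 1 was called higher (Cyp2c55), while Cyp2c38 and Cyp2c39 did not pass the test. Among all 13825 genes tested, 7.15% were called lower and 10.6% higher. The median log2 fold change of the members was -1.30, against 0.03 over all genes tested. In CPM the 7 members called lower had all 5 HF-C livers below all 4 LF-C livers, a pattern shown by 8.61% of all genes, and Cyp2c55 had all 5 above, as 12.9% of genes did. In whole liver, fewer hepatocytes and less RNA per hepatocyte cannot be told apart.

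Cyp2c54, an epoxygenase of arachidonic and linoleic acid, fell most. The LF-C livers, in replicate order as throughout, had 91.4, 75.1, 162 and 218 CPM, and the HF-C livers 13.8, 20.6, 21.2, 26.5 and 11.1 CPM. The highest HF-C liver thus lay far below the lowest LF-C liver, and the log2 fold change was -2.88 ± 0.36 (adjusted p = 0.000723). Cyp2c37, which makes hydroxy and epoxy products from arachidonic acid, lies next to it and fell nearly as far. The LF-C livers stood at 306, 209, 305 and 388 CPM and the HF-C livers at 57.8, 63.1, 84.4, 71.6 and 34.4 CPM (log2 -2.28 ± 0.27, adjusted p = 0.000536). Cyp2c50, their neighbour and an epoxygenase too, fell less, with 422, 351, 479 and 597 CPM in the LF-C livers and 144, 175, 206, 216 and 125 CPM in the HF-C livers (log2 -1.42 ± 0.22, adjusted p = 0.00187). In CPM the groups did not overlap for these 3 genes. In the deposited FPKM values Cyp2c50 overlapped, at 118 in LF-C-2 and 130 in HF-C-4.

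Cyp2c29, an abundant liver epoxygenase that CAR activators induce, had 678, 755, 870 and 579 CPM in the LF-C livers. The HF-C livers had 284, 193, 230, 208 and 129 CPM, and every HF-C liver was below every LF-C liver (log2 -1.79 ± 0.23, adjusted p = 0.000797). Cyp2c68, whose reads can be shared with Cyp2c40, ranged from 157 to 348 CPM over the LF-C livers and from 78.6 to 98.0 CPM over the HF-C livers (log2 -1.44 ± 0.22, adjusted p = 0.00184). The highest LF-C value of Cyp2c68 was that of LF-C-2, and without that library the log2 fold change was -1.22.

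Cyp2c70, which hydroxylates bile acids to make the muricholic acids of mice, changed by a smaller factor. LF-C livers stood at 301, 423, 327 and 437 CPM and HF-C livers at 167, 175, 253, 156 and 182 CPM (log2 -0.99 ± 0.19, adjusted p = 0.00608). Cyp2c44, an epoxygenase that is also active in kidney and vessels, had LF-C levels of 214 to 335 CPM and HF-C levels of 79.3 to 203 CPM (log2 -1.18 ± 0.27, adjusted p = 0.0128). In CPM the groups did not overlap for either gene, but for Cyp2c44 HF-C-3 came close to the lowest LF-C liver. In the deposited FPKM values they overlapped for both, with HF-C-3 at 166 against 150 in the lowest LF-C livers for Cyp2c70 and at 116 against 104 in LF-C-2 for Cyp2c44. Neither call held in every alternative, and both were lost with library size alone as the scaling (adjusted p = 0.073 for Cyp2c70 and 0.0545 for Cyp2c44).

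Cyp2c38 and Cyp2c39, which lie between Cyp2c29 and Cyp2c68, did not take part in the fall. Cyp2c38, an epoxygenase, had LF-C levels of 97.0, 39.7, 43.2 and 67.0 CPM and HF-C levels of 84.4, 73.4, 86.8, 85.9 and 59.1 CPM, and the groups overlapped (log2 0.34 ± 0.26, 95% interval -0.24 to 0.92, adjusted p = 0.398). Cyp2c39, which hydroxylates retinoic acid, had LF-C levels of 0.869 to 3.26 CPM and HF-C levels of 2.68 to 4.49 CPM (log2 0.93 ± 0.37, interval 0.11 to 1.75, adjusted p = 0.104). It was called higher without LF-C-4, the LF-C liver with its highest level (log2 1.38).

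Cyp2c55, known from the colon as an enzyme that hydroxylates arachidonic acid, rose from a low level. LF-C livers had 0.917, 0.948, 1.63 and 0.732 CPM, HF-C livers had 2.65, 2.79, 3.68, 3.01 and 2.54 CPM, and the groups did not overlap (log2 1.46 ± 0.29, adjusted p = 0.0074). The reads behind these values were 9 to 24 per LF-C library and 47 to 71 per HF-C library. Of 6 intestine markers, whose summed level was 37.7 to 107 CPM over LF-C and 21.1 to 29.9 CPM over HF-C livers, 3 were tested, and of these 0 were higher and 2 lower. Cdx2, which defines intestinal cells, was at 0 in all HF-C libraries.

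**Figure D2:**
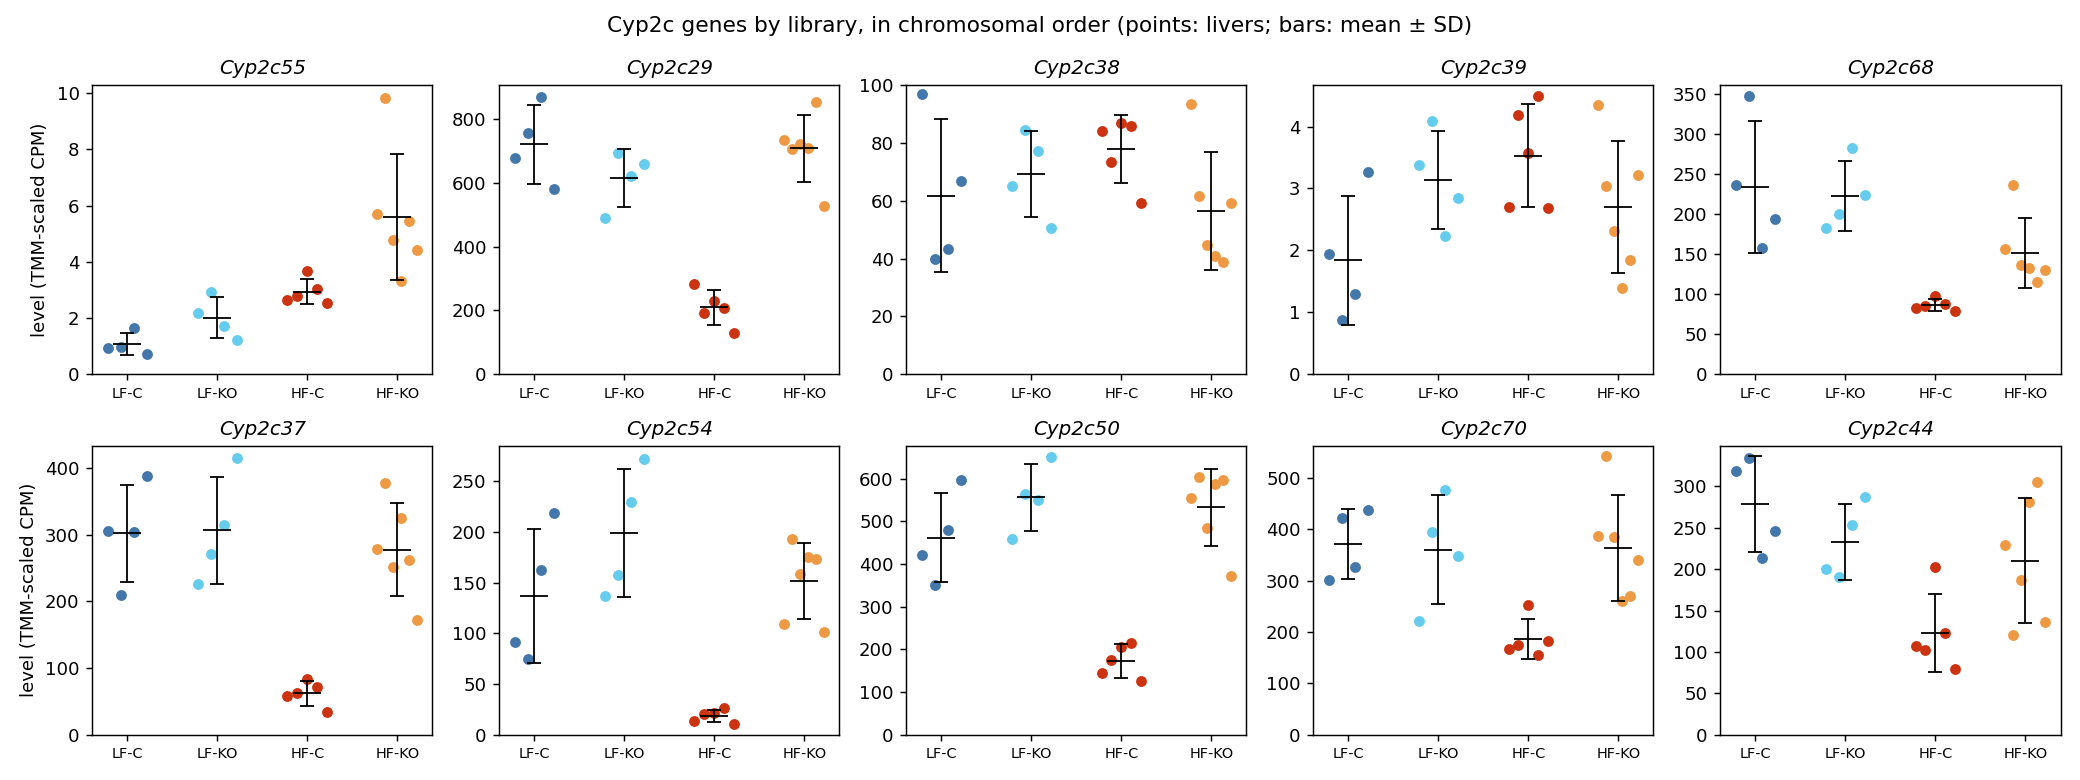
Level of each Cyp2c gene (vertical axes, TMM-scaled CPM, each from 0) in the 4 groups, with 1 point per liver and bars for the mean ± SD, in chromosomal order. In 7 panels the 5 HF-C points lie below all LF-C points, in the panels of Cyp2c38 and Cyp2c39 they overlap, and in that of Cyp2c55 they lie above.

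Between genotypes on the HF diet, HF-KO against HF-C, most of the family stood higher in the KO-labelled livers. Of the 10 members 7 were called higher (Cyp2c29, Cyp2c37, Cyp2c50, Cyp2c54, Cyp2c55, Cyp2c68 and Cyp2c70) and 0 lower, where 4.35% of the 13915 genes tested were called higher and 5.43% lower. The members' median log2 fold change was 0.97, against 0.02 over all genes. In 6 members all 6 HF-KO livers lay above all 5 HF-C livers, which held for 4.18% of all genes, while 0 members and 5.56% of genes had all of them below. HF-C is also a side of the comparison with LF-C above, so its low values enter both sets of fold changes.

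Cyp2c54 differed most here too, at 102 CPM in the lowest, 166 in the median and 192 in the highest HF-KO liver, against 26.5 CPM in the highest HF-C liver (log2 3.06 ± 0.26, adjusted p = 2.15e-05). Cyp2c37 ranged from 172 over a median of 270 to 377 CPM in HF-KO (log2 2.19 ± 0.24, adjusted p = 0.000161). Cyp2c29 ranged from 526 over a median of 715 to 852 CPM (log2 1.79 ± 0.18, adjusted p = 0.000113). Each of these HF-KO ranges lay wholly above that of HF-C.

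For Cyp2c50 the HF-KO livers had 372 CPM at the lowest, 571 at the median and 604 at the highest (log2 1.65 ± 0.17, adjusted p = 0.000139). Cyp2c70 had 260 to 543 CPM with a median of 362 (log2 1.00 ± 0.20, adjusted p = 0.00957), and its lowest HF-KO liver lay just above HF-C-3 at 253 CPM. Cyp2c68 ranged from 115 over a median of 135 to 237 CPM (log2 0.84 ± 0.17, adjusted p = 0.011), so its HF-KO livers lay above HF-C, while 5 of the 6 lay below the lowest LF-C liver at 157 CPM.

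Cyp2c55 was higher still in HF-KO, at 3.32 to 9.83 CPM with a median of 5.12, although its lowest HF-KO liver lay below the highest HF-C liver at 3.68 CPM. Its log2 fold change was 0.95 ± 0.25 (adjusted p = 0.0322). That call was lost without HF-C-1, HF-C-2, HF-C-4, HF-C-5, HF-KO-3 or HF-KO-5, and with all 19 libraries in 1 fit (adjusted p = 0.063). Cyp2c44 ranged from 121 over a median of 208 to 306 CPM in HF-KO and overlapped HF-C, at a log2 fold change of 0.80 ± 0.27 that did not pass (adjusted p = 0.0772). It passed in DESeq2 (adjusted p = 0.0337) and without HF-C-3 or HF-KO-2, and the authors' deposited table gives it a log2 fold change of 0.67 with an adjusted p of 0.0347.

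Cyp2c38 and Cyp2c39 again stood outside the shared pattern. Cyp2c38 had 39.0 to 93.4 CPM in HF-KO with a median of 52.0, a log2 fold change of -0.44 ± 0.21 that did not pass (95% interval -0.88 to 0.01, adjusted p = 0.186). Without HF-KO-1, its highest HF-KO liver, it was called lower (log2 -0.63). Cyp2c39 had 1.40 to 4.35 CPM with a median of 2.68 (log2 -0.36 ± 0.27, interval -0.94 to 0.23, adjusted p = 0.396).

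Within the KO-labelled livers the HF diet left 9 members without a call. In HF-KO against LF-KO, 1 of 10 members was called higher and 0 lower, beside 3.62% and 1.06% of the 13624 genes tested. Those shares rest on single livers: 0 genes were called without LF-KO-3, 4 without LF-KO-4 and 1214 without HF-KO-2. That member was Cyp2c55, at 2.17, 2.93, 1.72 and 1.20 CPM in the LF-KO livers, all below the lowest HF-KO liver at 3.32 CPM (log2 1.45 ± 0.33, adjusted p = 0.0308). Groups with no overlap in this direction were found for 4.76% of all genes, and in the other direction for 2.73%. The call of Cyp2c55 was lost without any of HF-KO-1, HF-KO-6 and LF-KO-1, LF-KO-3 or LF-KO-4, at log2 fold changes of 1.27 to 1.51. In DESeq2, limma-voom and every other scaling it held.

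The genes that fell in control livers, Cyp2c68 apart, had log2 values from -0.39 to 0.20 here. Lower 95% limits of all of them lay above the log2 values fitted there, which have errors of their own. The difference of the diet effect between genotypes equals the difference between diets tested below. It did not pass for Cyp2c68, Cyp2c70 or Cyp2c44. Cyp2c29 had 488, 694, 621 and 659 CPM in LF-KO against 526 to 852 in HF-KO (log2 0.20, 95% interval -0.14 to 0.54). Cyp2c37 had 227, 271, 314 and 414 CPM in LF-KO against 172 to 377 (log2 -0.15, interval -0.62 to 0.32). Cyp2c54 had 136, 157, 230 and 272 CPM in LF-KO against 102 to 192 (log2 -0.39, interval -0.90 to 0.11).

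Cyp2c50 gave a log2 value of -0.06 (interval -0.41 to 0.29), Cyp2c70 one of 0.01 (-0.51 to 0.53) and Cyp2c44 one of -0.15 (-0.70 to 0.40). Cyp2c68 stood lowest at -0.56 (upper limit -0.12, adjusted p = 0.146) and was called lower without HF-KO-2. The ranges of LF-KO and HF-KO overlapped for all 9 genes.

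On the LF diet the genotypes did not separate. In LF-KO against LF-C 0 of 10 members and 0.0% of 13056 genes were called by edgeR, while 554 genes, 1 member among them, had an unadjusted p under 0.05. That member was Cyp2c55, with means of 1.06 ± 0.395 CPM (LF-C) and 2.01 ± 0.736 CPM (LF-KO) (log2 0.92 ± 0.40, adjusted p = 0.704). DESeq2 called 0 of the 10. The groups overlapped in all 10 genes, where 1.71% of genes had all LF-KO livers above and 1.42% all below, and the widest 95% intervals were those of the low genes Cyp2c55 (0.03 to 1.80) and Cyp2c39 (-0.16 to 1.70). For Cyp2c29 the interval of the log2 fold change was -0.69 to 0.25, for Cyp2c37 -0.55 to 0.61, for Cyp2c50 -0.23 to 0.77, for Cyp2c54 -0.28 to 1.37 and for Cyp2c70 -0.62 to 0.54. Changes within those intervals remain possible.

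**Figure D3:**
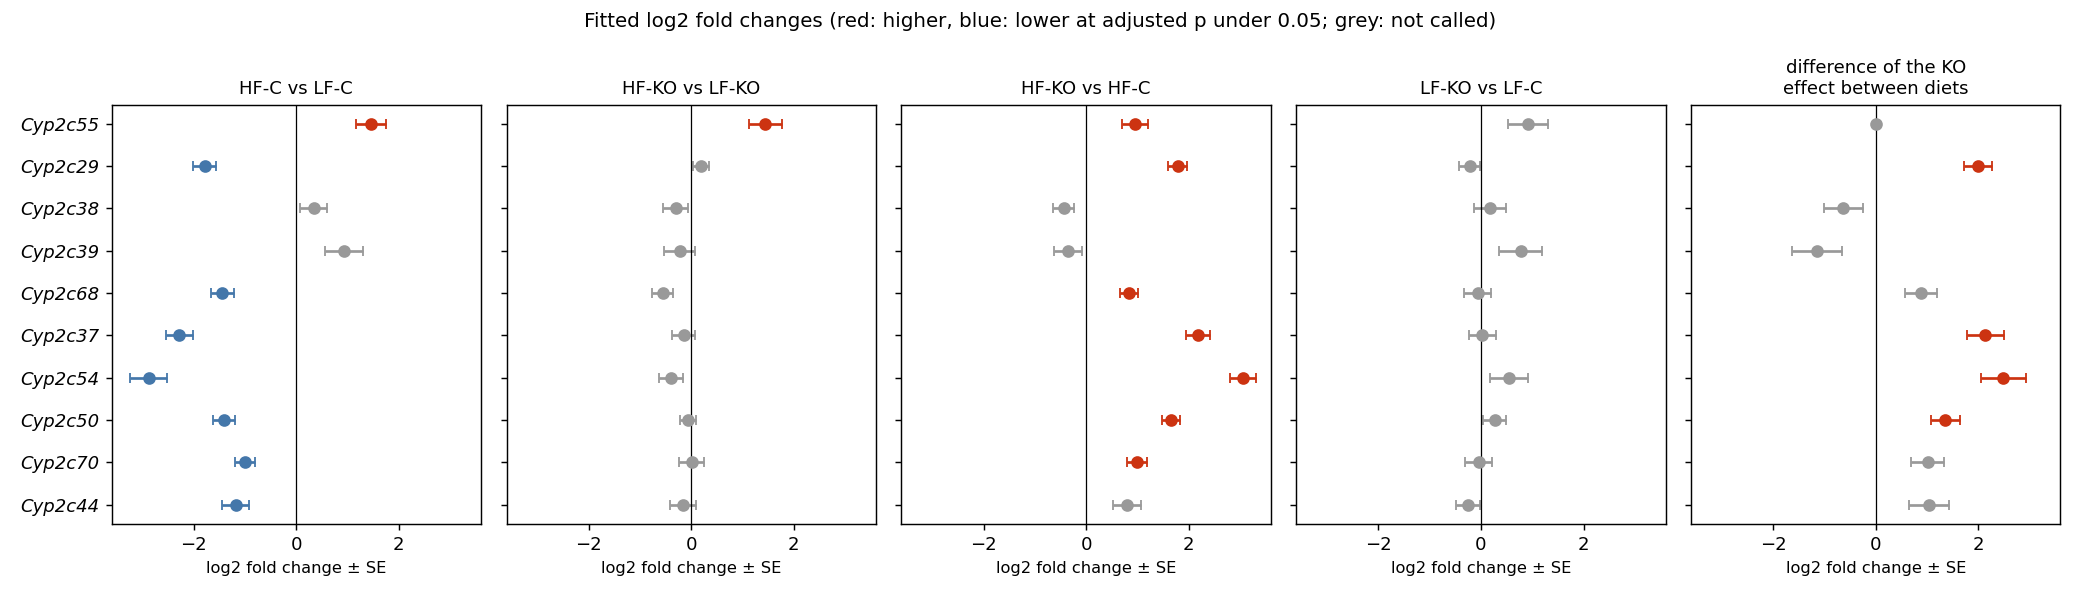
Log2 fold change ± SE of each Cyp2c gene (horizontal axes) in the 4 pairwise comparisons and for the difference between diets of the KO effect, with called genes in red (higher) or blue (lower) and others in grey. In HF-C vs LF-C 7 genes lie left of 0 and are called, in HF-KO vs HF-C 7 lie right of 0 and are called, and no SE is drawn for Cyp2c55 in the last panel, where its value was 0.00.

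Whether the genotype difference itself depended on diet was tested over all 19 libraries as the log2 genotype difference on the HF diet minus that on the LF diet. Of the 10 members 4 were called higher and 0 lower, where 0.125% of 14391 genes were higher and 0.0764% lower. These were Cyp2c54 (log2 2.49 ± 0.44, adjusted p = 0.0167), Cyp2c37 (2.13 ± 0.36, 0.0148), Cyp2c29 (1.99 ± 0.28, 0.0025) and Cyp2c50 (1.36 ± 0.28, 0.0433). Cyp2c44 (1.03 ± 0.39, adjusted p = 0.305), Cyp2c70 (1.01 ± 0.32, 0.223) and Cyp2c68 (0.88 ± 0.31, 0.281) had positive values that did not pass. Cyp2c38 (-0.63 ± 0.37, adjusted p = 0.485) and Cyp2c39 (-1.15 ± 0.49, 0.342) had negative values that did not pass. Cyp2c55 gave 0.00, where the SE cannot be computed in this way. DESeq2 gave it 0.03 ± 0.48, so differences in either direction remain possible.

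The call of Cyp2c29 held in every alternative run. That of Cyp2c50 was kept when LF-C-2, LF-KO-4, HF-C-3, HF-C-4, HF-KO-1 or HF-KO-6 was left out and lost without any other single liver, at log2 values of 1.19 to 1.38. It was also lost in limma-voom (adjusted p = 0.0585) and with no low-count filter (0.0502). Without LF-KO-1, and likewise without LF-KO-2, Cyp2c29 was the sole member called, so the count of 4 rests on those livers. Library size alone as the scaling, which shifted the median of all genes by -0.23 in this test, left 2 calls (Cyp2c29 and Cyp2c37).

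Ratios of reads between members of the same library need no scaling factor, and they show how the makeup of the family shifted, for pairs chosen after the values were seen. Cyp2c38 had 131 ± 27.5 reads per 100 Cyp2c37 reads in HF-C, against 20.5 ± 7.71 in LF-C, 24.2 ± 8.39 in LF-KO and 21.6 ± 9.74 in HF-KO. The lowest HF-C liver was at 103 and the highest of all other livers at 34.4. Cyp2c54 had 10.6 ± 1.45 reads per 100 reads of its neighbour Cyp2c50 in HF-C, against 28.4 ± 7.97 in LF-C, 35.3 ± 7.52 in LF-KO and 28.4 ± 4.69 in HF-KO, again with no overlap (8.84 to 12.3 against 19.7 and above). Cyp2c55 had 0.144 ± 0.0297 reads per 100 Cyp2c29 reads in LF-C and 1.48 ± 0.371 in HF-C, and 0.331 ± 0.124 in LF-KO and 0.796 ± 0.319 in HF-KO. HF-C and HF-KO overlapped in this last ratio. As a share of the summed FPKM, Cyp2c37 made up 7.20% ± 1.13 in HF-C and 13.0% ± 2.66 in LF-C, while Cyp2c70 made up 23.6% ± 4.15 and 17.0% ± 2.41.

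**Figure D4:**
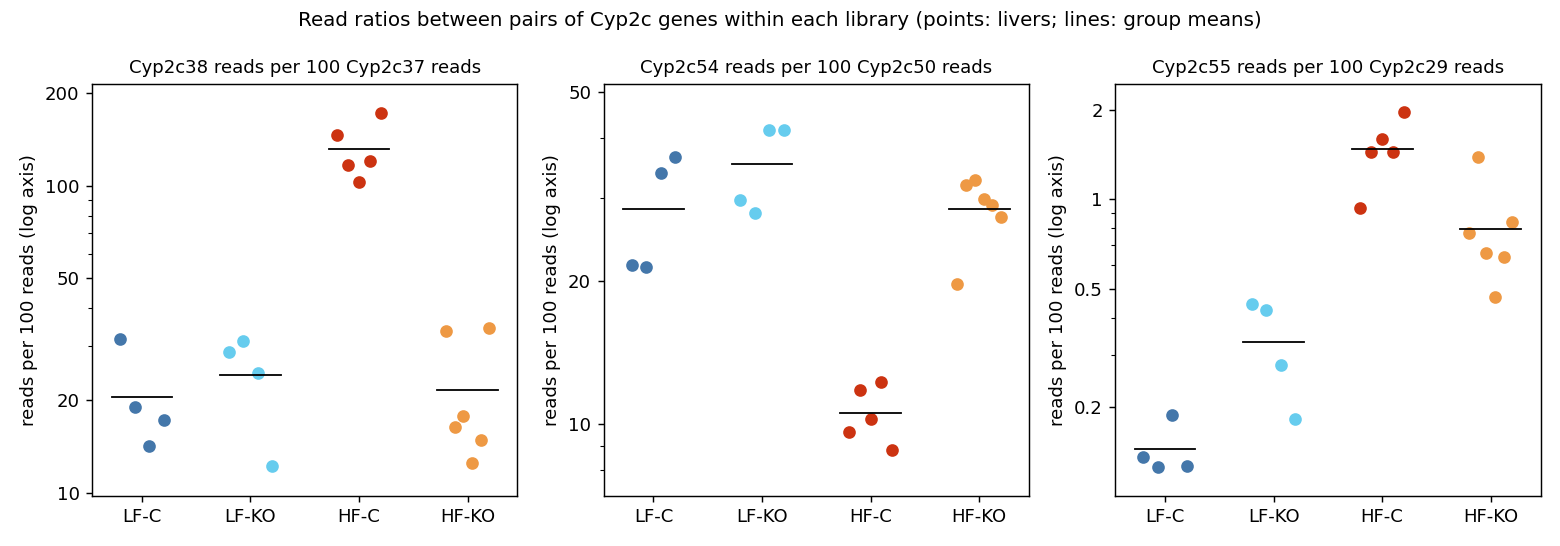
Reads of 1 Cyp2c gene per 100 reads of another in the same library (log axes), with 1 point per liver and a line at the group mean. The 5 HF-C livers lie above all others for Cyp2c38 over Cyp2c37 and below all others for Cyp2c54 over Cyp2c50, and for Cyp2c55 over Cyp2c29 they overlap HF-KO.

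In both comparisons with HF-C, markers of hepatocytes moved in the same direction as most members. Of 8 hepatocyte markers, 5 were lower and 0 higher in HF-C against LF-C (median log2 -1.19), and 4 were higher and 0 lower in HF-KO against HF-C (median 0.40). In HF-KO against LF-KO, where 9 members had no call, 3 of these markers were lower and 0 higher (median -0.52). Their summed level was 79170 to 199300 CPM over LF-C livers and 44500 to 58380 over HF-C livers, and 91130 to 119200 in LF-KO and 60840 to 73110 in HF-KO. HF-KO thus lay below LF-KO and LF-C in this summed level, most of which is Alb, though not in every marker (Apob, named after its values were seen, had 5470 ± 463 CPM in HF-KO and 4910 ± 1405 in LF-C). For Cyp2c29, Cyp2c37, Cyp2c50 and Cyp2c54 the HF-KO range overlapped the ranges of LF-KO and LF-C. Per 1000 reads of Alb, the serum albumin gene, a scale chosen after the data were seen, Cyp2c54 had 2.20 ± 1.65 reads in LF-C and 0.569 ± 0.135 in HF-C, and 2.95 ± 0.970 in LF-KO and 3.61 ± 0.908 in HF-KO. The highest HF-C liver, at 0.708, overlapped LF-C in LF-C-2, whose ratio of 0.630 was the lowest there.

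Alb itself was called lower in HF-C against LF-C (log2 -1.26 ± 0.27) and higher in HF-KO against HF-C (0.42 ± 0.13). Its levels were 77170 ± 30450 CPM in LF-C, 32190 ± 4293 in HF-C, 67640 ± 10080 in LF-KO and 42220 ± 2858 in HF-KO. Ratios to Alb carry these changes. Relative to Alb, Cyp2c29 had 10.2 ± 3.65 reads per 1000 in LF-C and 6.48 ± 1.62 in HF-C, and 9.22 ± 1.79 in LF-KO and 16.8 ± 2.17 in HF-KO. On this scale LF-C and HF-C overlapped (6.34 to 14.8 and 4.83 to 9.11), while HF-KO (13.8 to 20.5) stayed above HF-C. Cyp2c70 had 5.36 ± 2.32 reads per 1000 Alb reads in LF-C and 5.86 ± 1.19 in HF-C, so its diet difference did not appear on this scale. Cyp2c38 had 0.899 ± 0.454 in LF-C and 2.42 ± 0.187 in HF-C, with no overlap. In CPM, where Alb is not the divisor, the groups overlapped for Cyp2c38 and it was not called.

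In both comparisons with HF-C, the called markers of macrophages, stellate cells and cholangiocytes moved in the direction opposite to most members. Some others, named after their values were seen, were lower in HF-C against LF-C without a call. These were the macrophage markers Clec4f (log2 -0.62 ± 0.37) and Marco (-1.68 ± 1.09), the stellate cell markers Acta2 (-1.57 ± 0.72) and Des (-1.05 ± 0.58), and the cholangiocyte marker Krt19 (-1.94 ± 1.12). Macrophage markers gave 6 higher and 0 lower of 10 in HF-C against LF-C and 0 and 5 in HF-KO against HF-C, with summed levels of 210 to 800 CPM (LF-C), 456 to 646 (HF-C) and 333 to 448 (HF-KO). Stellate cell markers gave 4 and 0 of 8, then 0 and 3, with 285 to 336, 644 to 1031 and 372 to 564 CPM in those groups. Cholangiocyte markers gave 4 and 0 of 6, then 0 and 4, with 33.5 to 121, 156 to 511 and 88.0 to 189 CPM in the same groups. Most of that sum in HF-C is Spp1 (334.5 ± 130.1 CPM). No marker of these 3 lists was at 0 in every library of a group. Acute phase genes gave 5 and 0 of 10, then 0 and 2. Erythroid genes gave 0 and 2 of 5, then 3 and 0, endothelial markers 0 and 1 of 7, then 0 and 0, and the 1 adipocyte marker tested of 5 passed as lower in HF-KO against HF-C. Periportal hepatocyte markers gave 0 and 6 of 8, then 0 and 1, and pericentral ones 0 and 3 of 9, then 1 and 0. In HF-KO against LF-KO macrophage markers gave 7 higher and 0 lower, stellate cell markers 1 and 0, and cholangiocyte markers 2 and 0. Periportal markers gave 0 and 4 there and pericentral ones 0 and 1. Calls in that comparison rest on single livers, as given above. Summed levels in LF-KO were 162 to 242 CPM for macrophage, 238 to 385 for stellate cell and 47.9 to 88.8 for cholangiocyte markers. The part of these cells, of inflammation and of hepatocyte zones in the Cyp2c differences was not tested.

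Of the other Cyp2c genes, 5 were listed, and Cyp2c67 and Cyp2c40 had enough reads to test. Cyp2c67 was lowest in HF-C, as 7 of the members were, at 285 ± 56.8 CPM in LF-C, 128 ± 18.8 in HF-C, 310 ± 80.4 in LF-KO and 233 ± 42.5 in HF-KO (log2 -1.16 ± 0.18 in HF-C vs LF-C and 0.90 ± 0.15 in HF-KO vs HF-C, both called). Cyp2c40 had 17 to 32 reads per LF-C library and 1 to 4 per HF-C library (log2 -3.80 ± 0.46, adjusted p = 0.000637). Its genotype difference depended on diet by the same test (3.35 ± 0.65, adjusted p = 0.0348).

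Most receptors and factors known to act on Cyp2c genes were not called. Their median log2 fold change in HF-C against LF-C was -0.47, against 0.025 over all genes tested. Among all genes, 7.15% were called lower there. In HF-C against LF-C 0 of 14 were higher and 4 lower: Nr1i3, which encodes CAR (log2 -0.92 ± 0.24), Rxra, the partner of CAR and of PPARs (-0.82 ± 0.19), Cebpa (-0.69 ± 0.20) and Hnf4a, which encodes HNF4α (-0.49 ± 0.14). Cebpa and Hnf4a were named after their values were seen. In HF-KO against HF-C 1 was higher, the glucocorticoid receptor gene Nr3c1 (0.60 ± 0.12), and 0 lower.

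Most called targets of CAR and PXR outside the family moved opposite to most members. The median log2 fold change of those tested was 0.32 in HF-C against LF-C, where that of the members was -1.30. In HF-KO against HF-C it was 0.14, on the same side of 0 as the members' 0.97. Over all genes tested the medians were 0.025 and 0.019. The part of CAR and PXR in the Cyp2c differences was not tested. Cyp2b10, also on this list, had too few reads to pass the filter in either comparison here. In HF-C against LF-C 4 of 13 were higher and 1 lower, led by the glutathione transferase Gstm3 (log2 2.60 ± 0.31) and by Cyp3a11 (2.16 ± 0.29), the main drug-oxidizing P450 of mouse liver. In HF-KO against HF-C 1 was higher and 3 lower, among them the transporter genes Abcb1a (-0.87 ± 0.22) and Abcc3 (-0.94 ± 0.25). The gene lower in HF-C against LF-C was Ces2a (-1.21 ± 0.265), and that higher in HF-KO against HF-C was Cyp2b9 (1.51 ± 0.447). Both went with most members and were named after their values were seen. Of 9 genes for P450 electron partners and heme supply, 1 was higher in HF-C against LF-C, the heme oxygenase Hmox1 (1.09 ± 0.20), and 0 lower. In HF-KO against HF-C, 1 was higher, the cytochrome b5 gene Cyb5b (0.58 ± 0.11), and 0 lower.

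Other genes of the same substrates moved partly with the family. Of 14 eicosanoid genes 6 were lower and 1 higher in HF-C against LF-C. The hydroxylase gene Cyp4f14, whose product acts on arachidonic acid and leukotrienes, was lower (log2 -1.63 ± 0.20), and Pla2g4a, whose phospholipase frees arachidonic acid, was higher (1.75 ± 0.37). In HF-KO against HF-C 2 were higher, Cyp4f14 (0.81 ± 0.16) and the epoxygenase gene Cyp2j5 (0.41 ± 0.11), and 1 lower, Cyp4a14 (-1.09 ± 0.32), chosen for naming after its value was seen.

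Bile acid enzymes, the setting of Cyp2c70, gave 0 higher and 6 lower of 11 in HF-C against LF-C, led by Cyp7b1 of the acidic synthesis route (log2 -2.26 ± 0.23) and the acyl-CoA ligase Slc27a5 (-1.05 ± 0.17). In HF-KO against HF-C 5 were higher and 0 lower, led by the steroid reductase Akr1d1 (1.51 ± 0.19) and Cyp7b1 (1.33 ± 0.22). Retinoic acid genes, the setting of Cyp2c39, were enzymes and the receptor gene Rarb. Of 7 tested, 1 was higher and 1 lower in HF-C against LF-C, Dhrs9 (2.38 ± 0.51) and Cyp26b1 (-1.60 ± 0.50). In HF-KO against HF-C 1 was higher, Cyp26a1 (1.24 ± 0.33).

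Across all 19 libraries, the genes most like a member were sought by the mean absolute difference of centred log2(CPM + 1) values among 9540 genes outside the family. Nearest to Cyp2c29 were the succinate receptor gene Sucnr1 (0.32), Sdr9c7 (0.33) and Cyp1a2 (0.33), where the median gene differed by 0.72. Cyp1a2 stood at 349 ± 57.1 CPM in LF-C, 100.2 ± 23.4 in HF-C, 313 ± 41.9 in LF-KO and 247 ± 82.2 in HF-KO, the same order of HF-C below the other 3 groups. Nearest to Cyp2c70 were the amylase gene Amy1 (0.21), the cysteine dioxygenase gene Cdo1 (0.22) and Slc22a30 (0.22), against a median of 0.52. Nearest to Cyp2c55 were Cyp3a59 (0.24), Tifa (0.28) and the bile acid carrier gene Slc10a2 (0.29), against 0.61. Cyp3a59 had 14.0 ± 1.35 CPM in LF-C, 32.8 ± 6.08 in HF-C, 36.7 ± 11.8 in LF-KO and 52.1 ± 17.6 in HF-KO. These likenesses are descriptions over the same 19 libraries, with no test.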

How the data were processed

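Per the labels' protocols, total RNA of whole livers (RNA integrity number over 7) was made into libraries without strand information, sequenced as pairs of 150 bases and mapped with STAR 2.5. HTSeq 0.6.1 and DESeq2 are named too, per the submitters' processing notes, and the sources used here give no genome build or annotation. The authors deposited read counts per gene for each pair of groups, used here for all tests. The deposited FPKM values are those counts per kilobase of listed gene length and relative to the counted fragments of the library, and they were recomputed to within a relative 4.98e-12. The deposited log2 fold changes, p-values and adjusted p-values of the authors' own comparisons were used only where the text names them. The 4 tables were joined by gene identifier.

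Fits used edgeR 4.0.16 in R 4.3.3 (TMM factors, filterByExpr, quasi-likelihood test, Benjamini-Hochberg adjustment over all genes tested), on the libraries of each pair of groups, or on all 19 for the difference between diets, and were tested on simulated data with 200 changed genes. Each SE was taken as the size of the log2 value over the root of its F statistic. Alternatives were DESeq2 1.42.0, limma-voom (limma 3.58.1), other scalings, no low-count filter, a replicate block, 1 fit of all libraries and each library left out. Libraries are separate mice per the labels, and replicate pairs differed by more than counting error (mean chi-square per gene of 7.13 or more). Sequence comparisons used Biopython 1.88.

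The members and gene lists were chosen with earlier results of these data known. Named genes are the 10 members, up to 2 genes of each list with the smallest p in HF-C vs LF-C and up to 2 in HF-KO vs HF-C, taken among those called except where the text says otherwise, the 3 genes most like Cyp2c29, Cyp2c55 and Cyp2c70, and Pparg.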

Additional observations from a re-analysis of the deposited data

Results flagged for a closer look

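Within a group, 3 of 40 sets of member levels had 1 liver far from the rest by Dixon's criterion, which chance meets in about 1 of 20. Cyp2c55 in HF-KO-2 stood at 9.83 CPM, the highest of 6 HF-KO livers. Cyp2c68 in the same liver stood at 237 CPM, again the highest of 6. Cyp2c70 in HF-C-3 stood at 253 CPM, the highest of 5 HF-C livers.

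The log2 genotype difference (KO-labelled minus control) was larger on the HF diet than on the LF diet for 4 members, tested over all 19 libraries. The excess was 1.99 for Cyp2c29, 2.13 for Cyp2c37, 2.49 for Cyp2c54 and 1.36 for Cyp2c50.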

How the results depend on the processing

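Of 910 repeats of single-gene values, 830 kept direction and side of the threshold, 38 lost a call, 6 gained one and 36 changed sign, none of the last from a called value. Of those 36, 14 were for Cyp2c55 in the difference between diets, where its main value was 0.00. Leaving out each library gave 8 to 9 members called in HF-C vs LF-C, 0 to 2 in HF-KO vs LF-KO, 6 to 8 in HF-KO vs HF-C, 0 in LF-KO vs LF-C and 1 to 4 for the difference between diets. Log2 values that changed sign ranged in HF-KO vs LF-KO from -0.28 to 0.031 (Cyp2c37), -0.16 to 0.021 (Cyp2c50) and -0.17 to 0.17 (Cyp2c70), in LF-KO vs LF-C from -0.21 to 0.18 (Cyp2c68), -0.15 to 0.18 (Cyp2c37) and -0.20 to 0.14 (Cyp2c70), and for the difference between diets from -0.32 to 0.23 (Cyp2c55).

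Library size alone shifted the median of all genes by 0.43 in HF-C vs LF-C, left 6 members called there and 2 for the difference between diets, and turned Cyp2c37 (log2 0.034), Cyp2c50 (0.12) and Cyp2c44 (0.062) in HF-KO vs LF-KO and Cyp2c68 (0.13) and Cyp2c70 (0.092) in LF-KO vs LF-C. For Cyp2c55 the main value for the difference between diets was -6.6e-06, so its sign carries no direction. It turned with DESeq2 (0.028), median-of-ratios factors (0.032) and the block (0.026). The cause of the turns in this paragraph was not tested.

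With the replicate number as a block, 6 members were called in HF-C vs LF-C, without Cyp2c70 (adjusted p = 0.0777) and Cyp2c44 (0.106), Cyp2c55 was not called in HF-KO vs HF-C (0.0701), and in HF-KO vs LF-KO Cyp2c37 (0.020) and Cyp2c50 (0.0059) turned. Same-numbered livers correlated at -0.18 to 0.18 in their deviations from group means, and at 0.065 to 0.18 in HF-KO vs LF-KO. Livers of different numbers were not compared in this way, so whether the number stands for a shared factor cannot be told. Cyp2c55, Cyp2c39 and Cyp2c40 rest on few reads, which limits their precision.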
